A study of Mus musculus with 24 samples.

Results

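The S100 calcium-binding proteins are small EF-hand proteins that change shape when they bind calcium and then dock onto other proteins. Several also leave the cell and act as danger signals through the receptor for advanced glycation end products (Ager) and Toll-like receptor 4 (Tlr4), which feed into NF-κB. In the brain S100b is best known as a product of astrocytes and of the oligodendrocyte lineage, whereas S100a8 and S100a9, which pair to form calprotectin, are best known from neutrophils and monocytes. The members were 10 gene symbols (S100a1, S100a4, S100a6, S100a8, S100a9, S100a10, S100a11, S100a13, S100a16 and S100b) among the 24411 rows of the deposited count table, and all 10 were found. A further 7 S100 symbols in the table were not members.

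Hippocampal RNA was sequenced from mice of 6 groups. In the aging arm, wildtype C57/B6 mice were 20 months old and given the Nanoligomer cocktail (Old-Nano), 20 months old without it (Old), or 9 months old without it (Young), by the ages in the labels. In the tauopathy arm, all mice were 3 months old and were either rTg4510 mice given the cocktail (rTg4510-Nano), rTg4510 mice without it (rTg4510), or littermate controls (LM). The rTg4510 line carries a mutant human tau transgene driven in forebrain neurons, and the genotype tag of the LM libraries also reads rTg4510, although their descriptions name them littermate controls. Nanoligomers are antisense peptide nucleic acid molecules, here a cocktail directed against NF-κB and NLRP3. Each group had 4 libraries, except that the rTg4510 M2 and M3 columns were identical for every gene and were counted as 1 library (n = 3). Libraries are named by the sex letter and number of the mouse (F2, M1). The 23 distinct libraries held 17214974 to 27424344 counts each.

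Some libraries carried transcripts of other tissue, and these are named here because members were high in several of them. Old M1 had a summed striatum marker level of 1060 CPM (counts scaled to library size), where the other Old libraries had 70.8 to 91.7 CPM. Young M4 had a summed olfactory bulb marker level of 1205 CPM, where the other Young libraries had 15.9 to 17.0 CPM, and Old M1 had 254 CPM. Their summed hippocampal neuron markers were 269 CPM (Old M1) and 149 CPM (Young M4), the lowest of their groups. All 3 rTg4510 libraries had choroid plexus markers at 4747 to 19776 CPM, against 41.9 to 266 CPM in LM. In rTg4510-Nano, M2 stood apart in hypothalamus markers (301 CPM) and M3 in pituitary markers (1806 CPM). Pituitary markers summed to 496 CPM in LM M1, against 39.8 to 119 CPM in the other LM libraries. Hepatocyte markers summed to 687 (Young F4), 521 (Old F3) and 372 (Young M4) CPM, against 1.80 to 98.4 CPM in the other aging-arm libraries. Old-Nano F1 had a summed hippocampal neuron marker level of 350 CPM, where the other Old-Nano libraries had 844 to 1165 CPM. The same markers summed to 214 CPM in rTg4510-Nano M2, where the other rTg4510-Nano libraries had 622 to 1145 CPM.

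Levels were first compared between members per length of exon. The family covered a wide range, headed by S100b with a median of 83.8 CPM per kilobase over the 23 libraries and S100a1 with 77.8 CPM per kilobase. S100a1 is known in muscle as a regulator of the ryanodine receptor and the calcium pump, and is also found in neurons. S100a16, a broadly expressed member, had a median of 33.3 CPM per kilobase, and S100a13, known for helping to release Fgf1 and Il1a from cells, had 22.7 CPM per kilobase. S100a10, the binding partner of annexin A2, had a median of 12.1 CPM per kilobase. S100a6, or calcyclin, had 6.72 CPM per kilobase and S100a11, a partner of annexin A1, had 6.30 CPM per kilobase. S100a4, which binds non-muscle myosin and is common in fibroblasts and leukocytes, had 2.30 CPM per kilobase. S100a9 and S100a8 came last with medians of 0.349 and 0.274 CPM per kilobase.

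**Figure D1:**
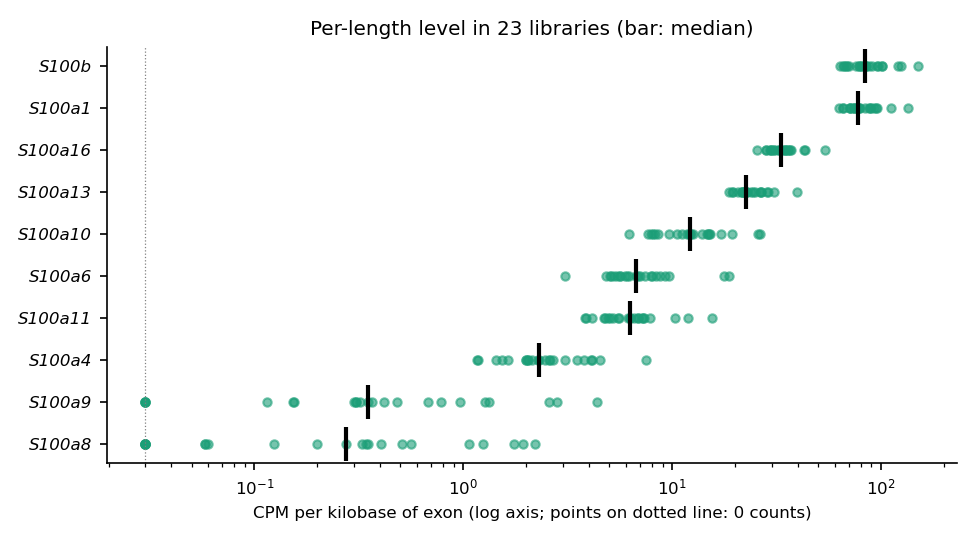
Per-length level of each member (CPM per kilobase of exon, log axis) in the 23 libraries, with a bar at the median. S100b and S100a1 sit at 62.7 to 151 CPM per kilobase, above every S100a16 value, and S100a8 and S100a9 reach 0 counts in 6 and 4 libraries.

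Most neighbours in this order overlapped over libraries. S100b ranged over 63.9 to 151 CPM per kilobase and S100a1 over 62.7 to 135 CPM per kilobase, so their order was not separated by the spread. The highest S100a16 value was 54.1 CPM per kilobase, below the lowest S100a1 value, and this was the only gap between neighbours. S100b made up 44.6% of the summed CPM of the members, S100a1 19.6% and S100a16 18.9%, whereas S100a8 and S100a9 made up 0.118% and 0.140%.

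All members except S100b lie on chromosome 3 (GRCm38). S100a1, S100a13, S100a16, S100a4, S100a6, S100a8 and S100a9 lie together between 90511034 and 90695721, with S100a11 (93520488 to 93526287) and S100a10 (93555080 to 93564643) further along. S100b lies alone on chromosome 10 (76253853 to 76261159). On the opposite strand Dip2a overlaps 1731 bases of S100b but shares 0 exon bases with it. Whether the counting used strand is not given in the sources used here. S100a1 and S100a13 start head to head. RefSeq places the start of S100a1 further inside the gene than GENCODE does, with its upstream window at 90514331 to 90514580. The 42 bases that separate the GENCODE starts are shown because the levels of this pair moved together over the libraries (below). They cover chr3:90514393-90514434 and are written on the plus strand, with S100a1 to the left and S100a13 to the right:

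between S100a1 and S100a13: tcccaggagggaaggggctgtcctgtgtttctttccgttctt

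The upstream stretches of S100a8 and S100a9 are shown for the same reason, since both make calprotectin and their levels moved together. Each is the 250 bases before the RefSeq start (GRCm38.p6), read 5′ to 3′ on the gene's own strand, and capitals mark TATAAA. S100a8 is on the plus strand (chr3:90668821-90669070) and S100a9 on the minus strand (chr3:90695722-90695971). GENCODE starts S100a8 at 90668978, so the end of its stretch, TATAAA included, lies inside the GENCODE gene.

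S100a8: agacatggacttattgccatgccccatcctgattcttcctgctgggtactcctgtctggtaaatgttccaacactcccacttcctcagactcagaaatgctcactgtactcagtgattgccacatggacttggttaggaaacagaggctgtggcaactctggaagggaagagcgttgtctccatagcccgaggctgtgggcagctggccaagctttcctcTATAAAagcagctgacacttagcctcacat
S100a9: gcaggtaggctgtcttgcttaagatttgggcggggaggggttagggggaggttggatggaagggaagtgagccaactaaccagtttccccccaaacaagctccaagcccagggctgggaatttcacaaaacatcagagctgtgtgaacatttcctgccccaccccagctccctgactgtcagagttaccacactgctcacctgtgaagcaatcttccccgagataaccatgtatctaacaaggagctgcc

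TATAAA was searched on both strands. It stood 30 to 25 bases before the RefSeq start of S100a8 and 31 to 26 bases before that of S100a4, and was in no window of the other members. Windows were present for 9 of the 10 members (10 windows, as S100a16 had a pair). Of all 32851 windows of this length, 12.4% held TATAAA. A match to the 10-base NF-κB motif on either strand was in 0 of the 10 windows and in 7.25% of all windows.

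The first comparison asked how age bears on the family, with Old set against Young. All 10 members passed the filter on low counts, and 9 of 10 had a positive log2 fold change, where 46.0% of the 15335 genes tested did. The median log2 fold change was 0.51 over the members and -0.02 over all genes tested. Without Old M1 and Young M4 the median was 0.29 over the 9 members then tested and -0.0071 over all genes. With edgeR's quasi-likelihood test and Benjamini-Hochberg adjustment, 0 of 10 members passed an adjusted p of 0.05, where 0.0130% of genes did. At an unadjusted p under 0.05 there were 4 members (S100b, S100a6, S100a8 and S100a1), where 10.3% of genes were. The DESeq2 Wald test called 1 member, S100b, where it called 1.53% of genes.

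**Figure D2:**
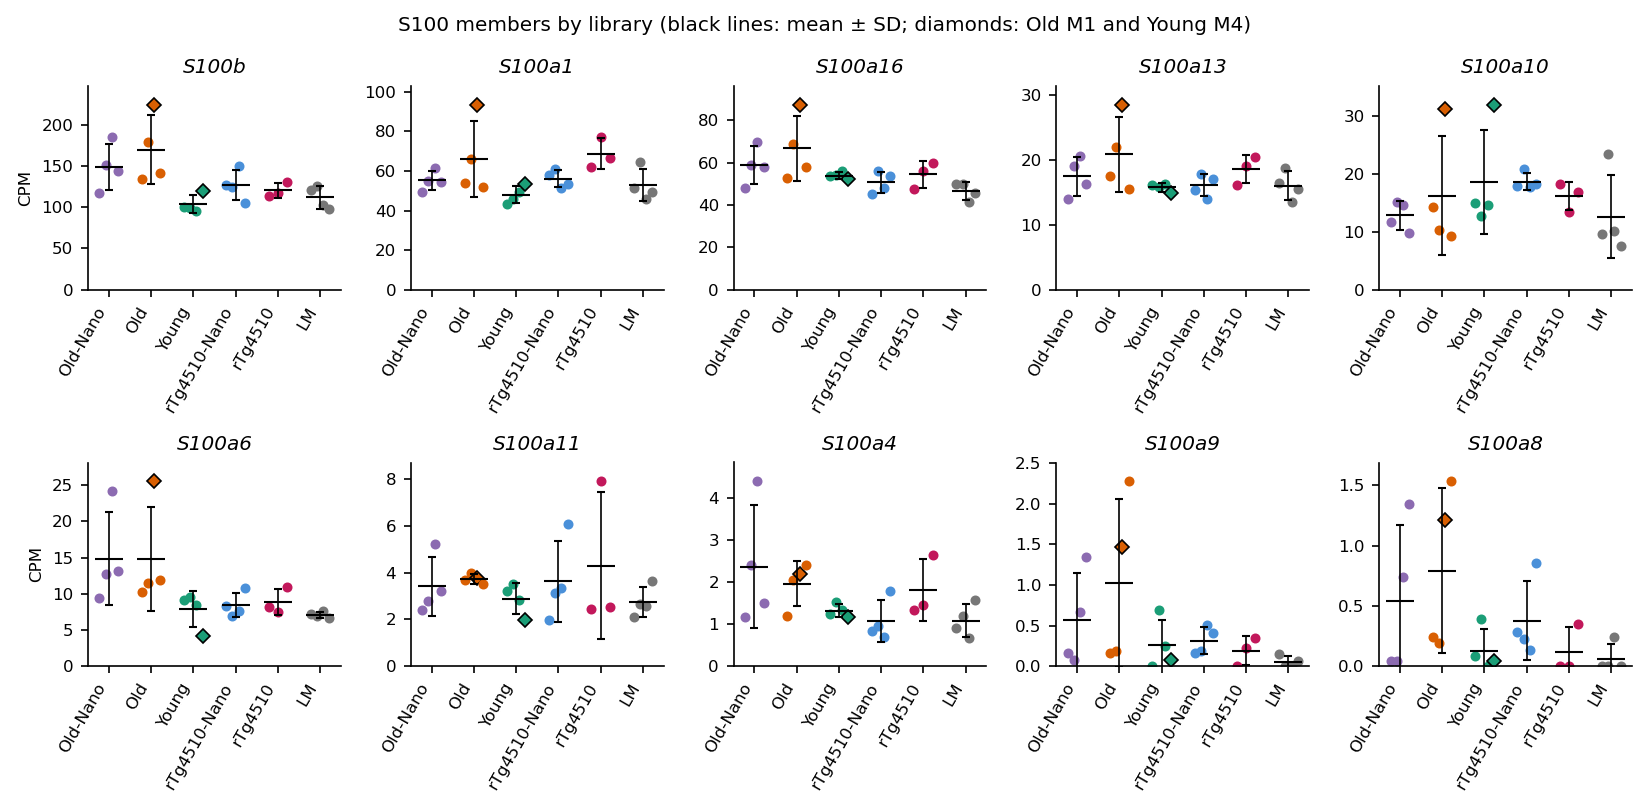
CPM of each member in each library, by group, with black lines for the mean ± SD (n = 4 per group, n = 3 in rTg4510) and diamonds for Old M1 and Young M4. Bars that would reach below 0 are clipped at the axis. In S100b all 4 Old libraries (134 to 224 CPM) lie above all 4 Young libraries (94.8 to 119 CPM), and Old M1 is the highest point of its panel in S100b, S100a1, S100a16, S100a13 and S100a6.

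S100b, the astrocyte member, was the clearest. It had 134 (F2), 179 (F3), 224 (M1) and 141 (M3) CPM in Old, against 101 (F2), 99.3 (F4), 94.8 (M1) and 119 (M4) CPM in Young. The ranges did not overlap, which held for 2 members and for 4.51% of genes in this direction. The mean was 170 ± 41.4 CPM in Old and 103 ± 10.7 CPM in Young (SD, n = 4 each). This was a log2 fold change of 0.71 ± 0.18 (SE), with an edgeR adjusted p of 0.338 and a DESeq2 adjusted p of 0.0289. Leaving out Old M1 and Young M4 gave 0.62 ± 0.12, an edgeR adjusted p of 0.174 and a DESeq2 adjusted p of 0.0015. Old-Nano libraries had 117 (F1), 151 (F2), 184 (M2) and 143 (M5) CPM of S100b, and their range overlapped that of Young by 1 library on either side.

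Cell type markers that accompany S100b were read beside it. All 9 astrocyte markers, Aqp4 first, were tested and 7 had a positive log2 fold change, with 0 called. Their summed level was 6405 to 8610 CPM in Old and 4559 to 6745 CPM in Young. All 8 oligodendrocyte markers, Mbp first, had a positive log2 fold change with 0 called, and summed to 4802 to 11623 CPM in Old and 2701 to 9687 CPM in Young. No astrocyte or oligodendrocyte marker was at 0 in any library, and their part in the S100b difference was not tested. In bulk tissue more or fewer cells of a type and more or less RNA per cell cannot be told apart.

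S100a6 was the other member whose groups did not overlap. It had 10.2 (F2), 11.5 (F3), 25.6 (M1) and 11.96 (M3) CPM in Old, against 9.19 (F2), 9.62 (F4), 8.51 (M1) and 4.20 (M4) CPM in Young. The gap between the groups was narrow, and the extremes were Old M1 and Young M4. The log2 fold change of S100a6 was 0.91 ± 0.37 (SE; edgeR adjusted p = 0.463) with all libraries and 0.29 ± 0.12 (adjusted p = 0.321) without those 2. S100a1 had 54.0, 65.8, 93.6 and 51.7 CPM in Old (F2, F3, M1, M3), against 43.5, 45.6, 49.6 and 53.6 CPM in Young (F2, F4, M1, M4). Its log2 fold change was 0.46 ± 0.19 (adjusted p = 0.474), and 0.30 ± 0.11 (adjusted p = 0.294) without Old M1 and Young M4. The groups overlapped.

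Old M1 also set the top of S100a13 (28.5 CPM) and S100a16 (87.5 CPM). The other Old libraries had 15.5 to 21.9 CPM of S100a13, and Young libraries had 14.8 to 16.2 CPM. For S100a16 they had 52.8 to 69.1 CPM in Old and 52.1 to 56.0 CPM in Young. Their log2 fold changes were 0.41 ± 0.19 for S100a13 and 0.31 ± 0.16 for S100a16, and were 0.18 ± 0.13 and 0.13 ± 0.10 without Old M1 and Young M4. The markers of striatum and olfactory bulb that set these libraries apart are given above, and their part in the member values was not tested.

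**Figure D3:**
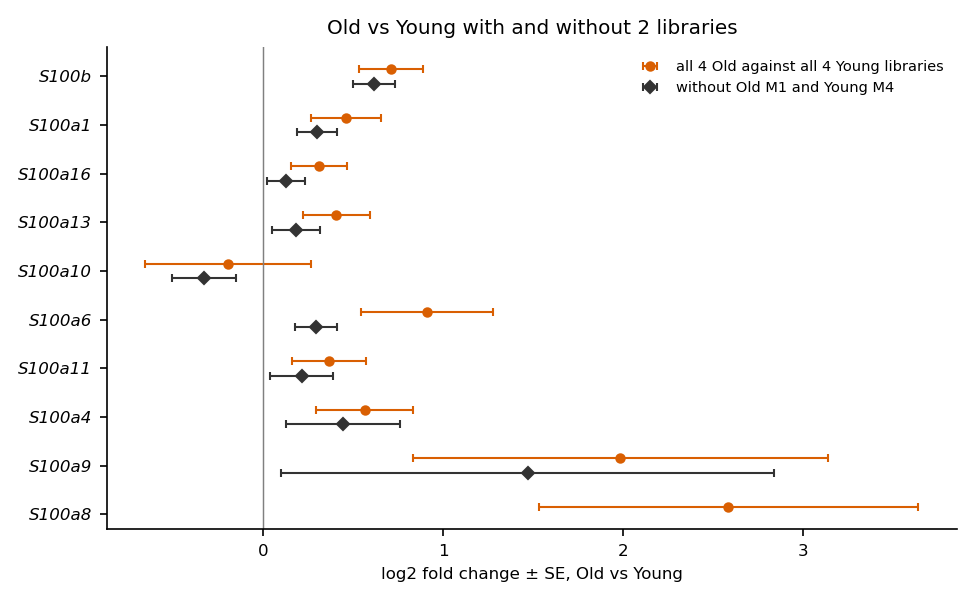
Log2 fold change of each member, Old against Young, ± SE, with all 4 libraries per group (circles) and without Old M1 and Young M4 (diamonds). S100b stays near its first value (0.71 and 0.62), whereas S100a6 moves to 0.29, compared with 0.91 in the full set. S100a8 fell below the filter on low counts in the smaller set and has no diamond.

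S100a10 was the only member with a negative log2 fold change, -0.19 ± 0.46 (adjusted p = 0.907). Its highest libraries of all 23 were Young M4 (32.1 CPM) and Old M1 (31.4 CPM). The other Old libraries had 9.25 to 14.2 CPM, and the other Young libraries had 12.8 to 14.9 CPM. Without Old M1 and Young M4 the log2 fold change of S100a10 was -0.33 ± 0.18 (adjusted p = 0.420). S100a5, a non-member best known from olfactory tissue, had 263 counts in Old M1 and 146 counts in Young M4, and at most 34 counts in any other library.

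S100a4 and S100a11 were low. S100a4 had 1.19 to 2.40 CPM in Old and 1.17 to 1.52 CPM in Young, with a log2 fold change of 0.56 ± 0.27 (adjusted p = 0.518). S100a11 had 3.50 to 3.99 CPM in Old and 1.98 to 3.53 CPM in Young, with a log2 fold change of 0.37 ± 0.21 (adjusted p = 0.569). In both genes the groups overlapped.

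The calprotectin genes had the largest log2 fold changes and the fewest counts. S100a8 had 6 (F2), 4 (F3), 28 (M1) and 39 (M3) counts in Old, against 2 (F2), 9 (F4), 0 (M1) and 1 (M4) counts in Young. In CPM this was 0.239, 0.190, 1.21 and 1.53 in Old and 0.0859, 0.392, 0 and 0.0404 in Young. S100a9 had 4, 4, 34 and 58 counts in Old (F2, F3, M1, M3), against 0, 16, 6 and 2 counts in Young (F2, F4, M1, M4). The high Old libraries were the M libraries, and Young F4 stood above both Old F libraries for each gene. The log2 fold change was 2.59 ± 1.06 for S100a8 (edgeR adjusted p = 0.468) and 1.98 ± 1.15 for S100a9 (adjusted p = 0.578). DESeq2 gave no adjusted p for S100a8. Leaving out Young F4 gave 4.09 for S100a8 and 3.15 for S100a9, and over all single libraries left out the values ran from 2.18 to 4.09 and from 1.58 to 3.15.

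**Figure D4:**
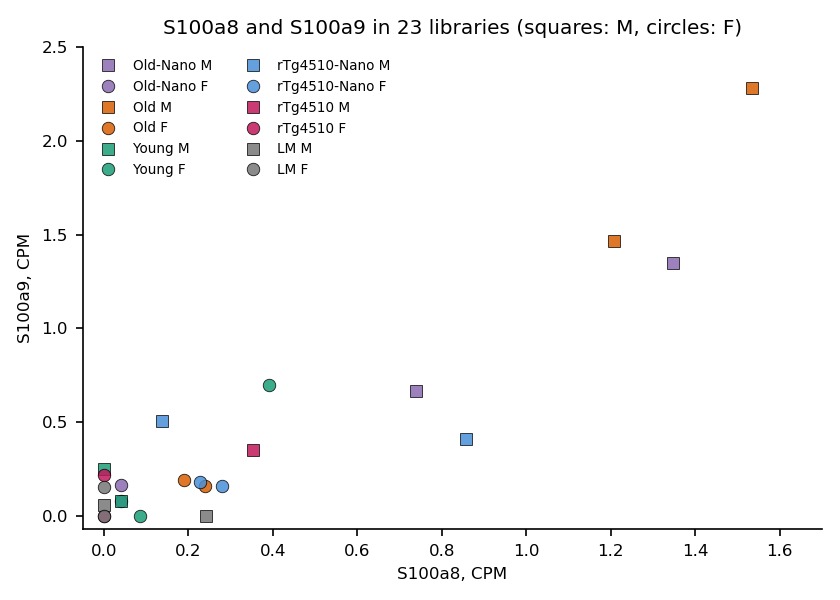
S100a8 against S100a9 in CPM, 1 point per library, coloured by group, with squares for M and circles for F mice. The 4 M libraries of Old and Old-Nano have 0.739 to 1.53 CPM of S100a8 and 0.665 to 2.28 CPM of S100a9. The 4 F libraries of the same groups have at most 0.239 and 0.190 CPM.

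The split by sex letter was seen after the values and is given as a description with no test. Over Old and Old-Nano together, S100a8 summed to 123 counts in the 4 M libraries and 12 counts in the 4 F libraries, and S100a9 summed to 146 and 14 counts. In Young the order was the other way for both genes. S100a8 had 1 count in the 2 M libraries and 11 counts in the 2 F libraries, and S100a9 had 8 and 16 counts. Over all 23 libraries S100a8 and S100a9 were correlated on the log2 CPM scale, with Pearson's r = 0.78 (permutation p = 2e-05, adjusted over 45 pairs of members p = 0.0003) and Spearman's rho = 0.69 (permutation p = 0.00035, adjusted p = 0.00315). Without the 2 libraries farthest from the median of S100a8 (Old M3 and Old-Nano M5) r was 0.67, and r was 0.67 after each group was centred on its mean. The permutations shuffled libraries across all groups, so differences between groups also enter these p-values. The centred r was not tested.

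Neutrophil markers were read beside these genes. Of 14 listed, 13 were in the table and 3 passed the filter in Old against Young, with 0 called. Ngp had 33 counts in Old M3 and 19 in Old-Nano M5, and 13 or fewer in every other library. Lcn2, which astrocytes can also make, had 437 counts in Old-Nano M2, 180 in Old M3 and 98 in Old M1. Ltf had 17 counts in Old-Nano M5 and 16 in Old M3, and 9 or fewer in every other library. Camp had 10 and 6 counts in these libraries, and 4 or fewer in every other. In Old M1 and Old-Nano M2, which were also high in S100a8, Ltf had 3 and 6 counts and Camp 0 and 2. Mpo, Mmp9, Cxcr2, Il1r2 and Mmp8 did not follow S100a8. Cxcr2 was highest in Young F4 (5 counts), with 2 counts in Old M1 and 3 in Old M3. Il1r2 had 10 and 7 counts in Old F2 and F3, and 5 each in Old M1 and M3. Mmp8 had 5 counts in Old M3 and in LM M2, 1 in Old M1, and 0 in Old-Nano M2 and M5. Mpo had 4, 7, 1 and 13 counts in Old (F2, F3, M1, M3), against 15, 7, 9 and 4 counts in Young (F2, F4, M1, M4), and Mmp9 had 1.30 to 2.03 CPM in Old and 0.889 to 2.45 CPM in Young. Csf3r, which microglia also express, had 5.95 to 13.7 CPM in Old and 4.85 to 6.27 CPM in Young. Stfa2l1, Elane and Retnlg were at 0 in 21, 17 and 16 libraries, and Retnlg was highest in Old M3 (4 counts) and Old-Nano M5 (3 counts). The list summed to 11.9 to 23.2 CPM in Old and 6.71 to 9.53 CPM in Young, with Csf3r the largest term in every Old and Young library. All 10 microglia markers, C1qa first, had a positive log2 fold change and 1 was called. They summed to 428 to 797 CPM in Old and 393 to 483 CPM in Young. The part of either list in the S100a8 and S100a9 values was not tested.

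The second comparison asked what the cocktail did in old mice, with Old-Nano set against Old. No member passed the test (0 of 10 by edgeR and 0 by DESeq2, where edgeR called 0% of 15257 genes). At an unadjusted p under 0.05 there were 0 members, where 1.21% of genes were. Only S100a4 had a positive log2 fold change, 1 of 10 members where 49.0% of genes did, and the median was -0.23 over the members and -0.0034 over all genes. Leaving out Old M1 moved the median of the members to -0.04. These values use the same Old libraries as the comparison with Young, so a high value in Old raises the first and lowers the second.

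S100a8 had 1, 1, 20 and 36 counts in Old-Nano (F1, F2, M2, M5), against 6, 4, 28 and 39 counts in Old (F2, F3, M1, M3). The ranges overlapped over most of their length. Its log2 fold change was -0.54 ± 1.04 (edgeR adjusted p = 0.9998), so that the interval of 1.96 SE reached from -2.57 to 1.49. S100a9 had 4, 2, 18 and 36 counts in Old-Nano and 4, 4, 34 and 58 counts in Old, with a log2 fold change of -0.85 ± 1.003. With single libraries left out, S100a8 ran from -1.50 to -0.00097 and S100a9 from -1.72 to -0.09. The lowest values came when Old-Nano M5 was dropped and the highest when Old M3 was. S100b averaged 149 ± 27.7 CPM in Old-Nano and 170 ± 41.4 CPM in Old (SD, n = 4 each). Its log2 fold change was -0.19 ± 0.20 with Old M1 and -0.03 ± 0.17 without it.

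The ranges of the other members also overlapped between Old-Nano and Old. S100a1 had 49.6 to 61.7 CPM in Old-Nano and 51.7 to 93.6 CPM in Old, with a log2 fold change of -0.27 ± 0.19. S100a13 had 13.9 to 20.6 CPM in Old-Nano and 15.5 to 28.5 CPM in Old (-0.27 ± 0.21), and S100a16 had 48.2 to 69.9 CPM in Old-Nano and 52.8 to 87.5 CPM in Old (-0.19 ± 0.18). Without Old M1 these values were -0.05 for S100a1, -0.07 for S100a13 and -0.03 for S100a16. S100a6 had 9.40, 12.7, 24.1 and 13.2 CPM in Old-Nano and 10.2, 11.5, 25.6 and 11.96 CPM in Old, so that each group had 1 high library (M2 and M1). Old-Nano M2 was also the highest of all libraries for S100a4 (4.40 CPM) and the highest of its group for S100a11 (5.25 CPM). Without it the log2 fold change of S100a4 was -0.21, compared with 0.27 ± 0.43 with it. For S100a11 it was -0.13 ± 0.25. S100a10 had 9.85 to 15.2 CPM in Old-Nano and 9.25 to 31.4 CPM in Old, with a log2 fold change of -0.35 ± 0.38 that became 0.19 without Old M1.

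**Figure D5:**
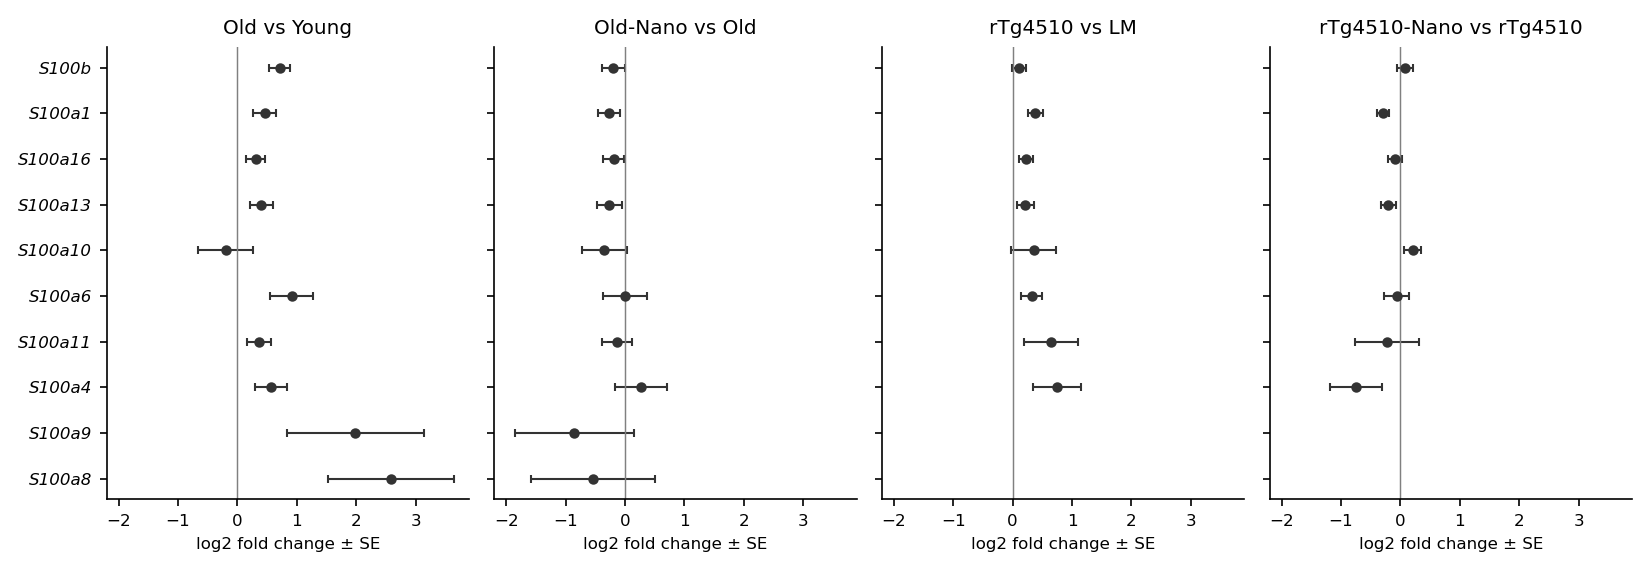
Log2 fold change ± SE of each member in the 4 main comparisons, from edgeR. Members lie mostly right of 0 in Old against Young (9 of 10) and rTg4510 against LM (8 of 8), and mostly left of it in Old-Nano against Old (9 of 10) and rTg4510-Nano against rTg4510 (6 of 8). S100a8 and S100a9 were under the filter on low counts in the rTg4510 comparisons.

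The third comparison asked how the tau transgene bears on the family at 3 months, with rTg4510 set against LM. S100a8 and S100a9 had too few counts to be tested, and the other 8 members all had a positive log2 fold change, where 49.8% of 15166 genes did. The median was 0.34 over the members and -0.0011 over all genes. With edgeR 0 of 8 members passed, where 0.811% of genes did, and DESeq2 also called 0. At an unadjusted p under 0.05 there was 1 member, S100a1, where 13.7% of genes were. No member had all rTg4510 libraries above all LM libraries, where 8.06% of genes did.

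S100a1 had 62.2 (F1), 77.4 (F3) and 66.7 (M2) CPM in rTg4510, against 51.5 (F2), 64.3 (F3), 45.8 (M1) and 49.5 (M2) CPM in LM. Only LM F3 reached into the rTg4510 range. The mean was 68.8 ± 7.81 CPM in rTg4510 (SD, n = 3) and 52.8 ± 8.06 CPM in LM (SD, n = 4). The log2 fold change was 0.38 ± 0.13 (edgeR adjusted p = 0.258). S100b had 113 to 130 CPM in rTg4510 and 98.2 to 126 CPM in LM, with a log2 fold change of 0.11 ± 0.11 (adjusted p = 0.749).

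S100a11 showed how far 1 library can carry a value. It had 2.44 (F1), 7.93 (F3) and 2.52 (M2) CPM in rTg4510, against 2.11 (F2), 2.66 (F3), 2.57 (M1) and 3.67 (M2) CPM in LM. For S100a11 the log2 fold change was 0.65 ± 0.45 (adjusted p = 0.599), and -0.15 without rTg4510 F3. That library had the highest choroid plexus (19776 CPM) and meningeal fibroblast (1447 CPM) marker sums of all 23. In this comparison 12 of 14 choroid plexus markers, Ttr first, were called higher, and 1 of 9 meningeal fibroblast markers was. None of the choroid plexus or meningeal markers was at 0 in the rTg4510 libraries, and their part in the S100a11 value was not tested.

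S100a4 had 1.34, 1.45 and 2.65 CPM in rTg4510 (F1, F3, M2), against 0.897, 1.20, 0.679 and 1.56 CPM in LM (F2, F3, M1, M2), with a log2 fold change of 0.74 ± 0.41 (adjusted p = 0.483). The groups overlapped through LM M2. S100a6 had 7.44 to 10.9 CPM in rTg4510 and 6.61 to 7.67 CPM in LM (0.32 ± 0.17), S100a13 had 16.1 to 20.4 CPM in rTg4510 and 13.4 to 18.8 CPM in LM (0.21 ± 0.14), and S100a16 had 47.3 to 60.1 CPM in rTg4510 and 41.3 to 49.9 CPM in LM (0.22 ± 0.11). S100a10 had 13.5 to 18.2 CPM in rTg4510. In LM it had 23.4 CPM in F3 and 7.51 to 10.1 CPM in the other libraries. Its log2 fold change was 0.36 ± 0.38, and was 0.83 without LM F3 (edgeR adjusted p = 0.0943). S100a8 had 0, 0 and 8 counts in rTg4510, against 0, 0, 5 and 0 counts in LM. S100a9 had 0, 5 and 8 counts in rTg4510, against 4, 0, 0 and 1 counts in LM.

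The fourth comparison asked what the cocktail did in the tauopathy mice, with rTg4510-Nano set against rTg4510. Of 8 members tested, 2 had a positive and 6 a negative log2 fold change, where 49.6% of 15358 genes were positive, and the median was -0.15 over the members. With edgeR and with DESeq2 0 members passed, where edgeR called 0.0521% of genes. At an unadjusted p under 0.05 there was 1 member, S100a1, where 5.50% of genes were.

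S100a1 had 58.2 (F1), 60.9 (F2), 51.4 (M2) and 53.6 (M3) CPM in rTg4510-Nano, against 62.2 (F1), 77.4 (F3) and 66.7 (M2) CPM in rTg4510. The ranges did not overlap, though they nearly met, and 4.48% of genes were lower in rTg4510-Nano without overlap. Its log2 fold change was -0.29 ± 0.10 (edgeR adjusted p = 0.713). It was -0.19 without rTg4510 F3, and also -0.19 without rTg4510-Nano M2 and M3, the libraries with hypothalamus and pituitary markers. In the same comparison all 14 choroid plexus markers were lower at an unadjusted p under 0.05, of which 4 were called, with a median log2 fold change of -5.92. They summed to 37.8 to 116 CPM in rTg4510-Nano and 4747 to 19776 CPM in rTg4510, and their part in the S100a1 value was not tested. The comparison uses the same 3 rTg4510 libraries as that with LM.

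The remaining members overlapped between rTg4510-Nano and rTg4510. S100a4 had 0.839, 0.956, 0.690 and 1.79 CPM in rTg4510-Nano and 1.34, 1.45 and 2.65 CPM in rTg4510, with a log2 fold change of -0.75 ± 0.43 (adjusted p = 0.955). S100a11 had 1.96, 3.14, 3.36 and 6.08 CPM in rTg4510-Nano and 2.44, 7.93 and 2.52 CPM in rTg4510 (-0.22 ± 0.54, and 0.56 without rTg4510 F3). S100b averaged 126 ± 18.2 CPM in rTg4510-Nano (SD, n = 4) and 120 ± 9.07 CPM in rTg4510 (SD, n = 3), a log2 fold change of 0.08 ± 0.14. S100a10 had 17.8 to 20.8 CPM in rTg4510-Nano and 13.5 to 18.2 CPM in rTg4510 (0.21 ± 0.14). S100a13 (-0.20 ± 0.13), S100a16 (-0.09 ± 0.12) and S100a6 (-0.06 ± 0.21) were closer to 0. S100a8 had 7, 5, 3 and 23 counts in rTg4510-Nano and 0, 0 and 8 counts in rTg4510, and S100a9 had 4, 4, 11 and 11 counts in rTg4510-Nano and 0, 5 and 8 counts in rTg4510.

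Treated groups were also set against the healthy groups of each arm. In Old-Nano against Young 0 of 9 members tested passed by edgeR or by DESeq2, where edgeR called 0.00651% of genes, and 2 had an unadjusted p under 0.05, where 10.6% of genes did. These were S100b (log2 fold change 0.52 ± 0.15, adjusted p = 0.409) and S100a6 (0.92 ± 0.35, adjusted p = 0.443). No member had all Old-Nano libraries above all Young libraries, where 4.10% of genes did, since Old-Nano F1 (117 CPM of S100b and 9.40 CPM of S100a6) lay within the Young range for both. In rTg4510-Nano against LM 0 of 8 members passed by either tool, where edgeR called 0.0263% of genes, and 0 had an unadjusted p under 0.05, where 8.04% of genes did. The difference between the treatment effects in old and in rTg4510 mice was tested as an interaction, in which 0 of 10 members passed by either tool, where edgeR called 0.143% of genes, and 0 had an unadjusted p under 0.05, where 3.93% of genes did.

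RNA of Nlrp3 and of the NF-κB genes Nfkb1 and Rela was read beside the members. The paper names NF-κB as a target without a subunit. It reported lower NF-κB and NLRP3 protein shortly after a single dose in old mice, which is another measure and time. Nfkb1 had 18.7 to 25.3 CPM in Old-Nano and 15.4 to 22.7 CPM in Old, and Rela had 23.8 to 36.8 CPM in Old-Nano and 25.6 to 34.2 CPM in Old. Nlrp3 had 1.08 to 2.29 CPM in Old-Nano and 0.733 to 1.99 CPM in Old. In rTg4510-Nano against rTg4510 the log2 fold changes were -0.04 ± 0.20 for Nfkb1, -0.05 ± 0.15 for Rela and -0.0013 ± 0.34 for Nlrp3. None of these genes passed the test in either comparison.

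Partners and receptors of S100 proteins formed a list of 26 genes. In Old against Young all 26 were tested, edgeR called 0 and DESeq2 called 1 (Anxa5), where they called 0.0130% and 1.53% of genes, and 2 had an unadjusted p under 0.05, both higher, where 10.3% of genes did. Anxa5, an annexin, had 58.0, 67.8, 60.4 and 50.4 CPM in Old and 43.6, 46.6, 41.3 and 43.7 CPM in Young, with a log2 fold change of 0.43 ± 0.10 (edgeR adjusted p = 0.333, DESeq2 adjusted p = 0.0349). Htr1b, a serotonin receptor whose surface level depends on S100a10, had 0.855 to 2.60 CPM in Old and 0.364 to 1.26 CPM in Young (1.33 ± 0.50, adjusted p = 0.441). The receptors Ager and Tlr4 had log2 fold changes of -0.05 ± 0.36 and -0.04 ± 0.44. In Old-Nano against Old all 26 were tested, 0 passed by either tool and 0 had an unadjusted p under 0.05. Fgf1, cargo of S100a13, had the smallest p there (log2 fold change -0.27 ± 0.14, adjusted p = 0.9998).

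In rTg4510 against LM edgeR called 0 of 26 partners, with 4 higher and 1 lower at an unadjusted p under 0.05, and DESeq2 called 3 (Bsg, Iqgap1 and Htr4). Over all genes 13.7% had an unadjusted p under 0.05 in this comparison and DESeq2 called 5.02%. Bsg (basigin, a receptor for S100a9) had 654, 1029 and 698 CPM in rTg4510, against 461, 468, 422 and 415 CPM in LM, with a log2 fold change of 0.85 ± 0.16 (edgeR adjusted p = 0.0611, DESeq2 adjusted p = 7.8e-05). Iqgap1, a scaffold that binds S100 proteins, had 47.0, 81.1 and 46.2 CPM in rTg4510, against 32.3, 24.7, 25.1 and 26.8 CPM in LM (1.09 ± 0.21, edgeR adjusted p = 0.0687, DESeq2 adjusted p = 0.00016). Both were highest in rTg4510 F3, the library with the most choroid plexus transcripts, whose part was not tested. Htr4, another serotonin receptor that binds S100a10, had 2.44, 5.21 and 3.71 CPM in rTg4510, against 12.9, 7.45, 15.2 and 13.8 CPM in LM (-1.70 ± 0.33, edgeR adjusted p = 0.0647, DESeq2 adjusted p = 3.3e-05). In rTg4510-Nano against rTg4510, 25 partners were tested, of which edgeR called 0, with 1 higher and 2 lower at an unadjusted p under 0.05, and DESeq2 called 2 (Bsg and Iqgap1). Over all genes 5.50% had an unadjusted p under 0.05 here and DESeq2 called 1.47%. The smallest edgeR p-values belonged to Bsg (-0.77 ± 0.16, adjusted p = 0.271), Iqgap1 (-0.87 ± 0.22, adjusted p = 0.406) and Htr4 (0.81 ± 0.32, adjusted p = 0.826). The choroid plexus markers, lower in rTg4510-Nano as given above, moved with Bsg and Iqgap1, and their part was not tested.

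Members moved together over the libraries to differing degrees. Of 45 pairs, 21 had a Pearson correlation with an adjusted permutation p under 0.05, and all 21 were positive. The share over pairs of other genes was not computed, so this count cannot be read as particular to the family. The highest were S100a13 with S100a16 (r = 0.88, rho = 0.78), then the head-to-head pair S100a1 and S100a13 (r = 0.83, rho = 0.77). Both had a permutation p of 1e-05 for r, the smallest that 100000 permutations can give (adjusted p = 0.000225), and p for rho of 2e-05 and 4e-05 (adjusted p = 0.00045 and 0.0006). Without the 2 libraries farthest from the median of the first-named gene r was 0.73 for each pair, and after centring each group r was 0.92 and 0.84. S100a10 varied by partner. With S100a1 it had r = 0.47 (permutation p = 0.0226, adjusted p = 0.0483), and rho = 0.43 (p = 0.0417, adjusted p = 0.0815). Without Old M1 and rTg4510 F3, the libraries farthest from the median of S100a1, r was 0.36, with Young M4 still included. After centring each group, r was 0.71 with S100a1, 0.60 with S100b and 0.53 with S100a13. Without centring, r of S100a10 was 0.25 with S100b and 0.35 with S100a13. Those values were 0.04 and 0.25 when Old M1 and Young M4 were left out. Its r with S100a4, S100a6, S100a8, S100a9 and S100a11 lay between -0.13 and 0.01, with permutation p of 0.543 to 0.977 (rho of -0.16 to -0.02, p of 0.464 to 0.933, all adjusted p at 0.55 or above). The libraries share normalisation and, in part, the tissue composition described above. The permutations did not keep libraries within their group, so differences between groups also enter these p-values.

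Genes whose log2 CPM was most like that of single members were listed over the 23 libraries as a description. For S100b these were Rpl37rt (r = 0.82), Snx5 (0.82), Lap3 (0.81), Snapin (0.80) and Tsc22d4 (0.80), of 13159 candidates, where Rpl37rt may share reads with its parent gene. For S100a6 they were Gstm5 (0.83), Prdx6 (0.82), Tprgl (0.82), Gstm1 (0.81) and Rras (0.81). For S100a8 they were Cdc20 (0.73), Lcn2 (0.72), Cd22 (0.70), Lsp1 (0.69) and Gm6623 (0.68), of 15359 candidates.

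The S100 symbols outside the members were nearly silent. S100a2, S100a3, S100a7a, S100a14, S100g and S100z had at most 23 counts in any library, the highest being S100a3 in Old M1, and S100a5 exceeded this only as given above. Within groups the members also differed in steadiness. The pooled within-group SD on the log2 scale was 0.19 for S100a16 and 0.21 for S100a1, compared with a median of 0.26 over 15368 genes, and 0.53 for S100a4 and S100a10, 0.51 for S100a11 and 1.24 for S100a9.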

How the data were processed

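Left hippocampus RNA was sequenced by the authors from poly(A)-selected TruSeq libraries. Reads were trimmed with fastp and aligned to mm10 with STAR, and the deposited counts are whole numbers per gene symbol, not normalised. The sources used here do not name the counting program, its strand setting or tool versions. The methods give 6 mice per group, and 24 columns (4 per group) were used, of which 1 pair was identical. Whether libraries of a group come from separate mice is taken from the sex letter and number, and p-values measure the spread between these libraries only. The members and the gene lists were chosen with earlier results of these data known.

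Tests were run with edgeR 4.0.16 (R 4.3.3), and with DESeq2 1.42.0 as an alternative. Each pair of groups was fitted alone over genes with a mean TMM-normalised count of at least 10, with edgeR's robust quasi-likelihood test (two-sided) and a Benjamini-Hochberg threshold of 0.05 over all genes tested. SE was derived from the F statistic. CPM used TMM-scaled library sizes over the 23 libraries, log2 CPM a prior count of 2, and per-kilobase values the union of exons in GENCODE M21 (GRCm38). Promoter windows came from RefSeq (GRCm38.p6). Permutation tests (two-sided) used 100000 permutations of the libraries across all groups, in Python 3.11.15 with numpy 2.4.6, scipy 1.17.1 and matplotlib 3.10.9. Scripts were tested on simulated data. All members were named in every comparison, partners up to 4 per comparison by p, marker lists by their first gene and those a result turns on.

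Depth was 17214974 to 27424344 counts per library. S100a8 and S100a9 had the fewest counts of the members, and counting error was not separated from the spread between libraries. Alternatives were the DESeq2 test, DESeq2 size factors, stricter or no filtering of low counts, a sex term, all groups fitted together, a block by shared replicate number, both identical columns kept, each replicate left out, and Old M1 and Young M4 or rTg4510-Nano M2 and M3 left out. The DESeq2 test without Old M1 and Young M4 was added after seeing the data.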

Additional observations from a re-analysis of the deposited data

Results flagged for a closer look

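In 50 groups of 4 libraries, 1 member each, 4 held a library far from the other 3 by Dixon's test at 95% (critical value 0.829), and chance marks about 1 group in 20. S100a6 was 25.6 CPM (593 counts) in Old M1 and 10.2 to 11.96 CPM in the other Old libraries. S100a10 was 32.1 CPM (793 counts) in Young M4 and 12.8 to 14.9 CPM in the other Young libraries. S100a10 was also 23.4 CPM (528 counts) in LM F3 and 7.51 to 10.1 CPM in the other LM libraries, and that library had a summed hypothalamus marker level of 28.6 CPM, where the other LM libraries had 0.873 to 2.95 CPM. S100a8 was 0.243 CPM in LM M1, which is 5 counts, and at 0 in the other LM libraries. With the other 3 tied at 0, any count above 0 would be marked. The chance rate of 1 in 20 does not apply to this group, and nothing can be read from its mark.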

How the results depend on the processing

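Over the 7 comparisons, 115 alternative fits were run, and 113 of them called 0 members. The exceptions were both in Old against Young, where the DESeq2 Wald test called 1 member and DESeq2 without Old M1 and Young M4 called 1, S100b in each case. The log2 fold change of S100b was 0.71 and 0.62 in these. Leaving out each replicate in turn gave 0 members (lowest and highest) in every comparison. Of 551 values of members' log2 fold changes under the alternatives in the 4 main comparisons, 22 had the other sign, in 9 of 36 fold changes, none of them called. In Old against Young, S100a10 was 0.52 with the replicate block and -0.73 to 0.20 with each replicate left out. In Old-Nano against Old, S100a6 was 0.0030 with DESeq2, 0.0038 with DESeq2 size factors, 0.0058 with a mean count of at least 50, 0.0021 with sex as a covariate and 0.41 without Old M1, and -0.34 to 0.41 with each replicate left out. Without Old M1, S100a10 was 0.19 there. With each replicate left out, S100a10 was -0.54 to 0.19, S100a11 -0.41 to 0.0045 and S100a4 -0.21 to 0.49. In rTg4510 against LM, S100a11 was -0.15 to 0.94. In rTg4510-Nano against rTg4510, S100a11 was 0.065 with the replicate block and -0.58 to 0.56 with each replicate left out, S100a6 was -0.20 to 0.12 and S100b -0.0059 to 0.16. The causes were not tested.

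Same-numbered libraries of 2 groups were taken to share only a number. Their deviations from the group means correlated between -0.30 and 0.38, and each comparison had 2 such pairs at most. No values for differently numbered libraries are given, so these correlations cannot decide whether same-numbered libraries share more than the number. A fit with the number as a block called 0 members in the 4 comparisons where it could be made, with log2 fold changes of 0.83 for S100b in Old against Young, 0.33 for S100a1 in rTg4510 against LM and -0.22 for S100a1 in rTg4510-Nano against rTg4510. In Old-Nano against Old or Young, fewer than 2 numbers allowed no such fit.

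With edgeR, sex as a covariate called 0 genes in Old against Young, and DESeq2 called 235 where edgeR called 2. In rTg4510 against LM edgeR called 113 genes higher and 10 lower, DESeq2 587 and 175, edgeR with both identical columns kept 315 and 89, with all groups fitted together 354 and 26, and with sex as a covariate 28 and 5. In rTg4510-Nano against rTg4510 edgeR called 8 and DESeq2 225 genes, and in Old-Nano against Young 1 and 262. S100a8 has 0 counts in 6 libraries and S100a9 in 4, so that differences of a few counts were not detectable at this depth.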
